A study of Rattus norvegicus with 31 samples.

Results

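The genes that encode the subunits of the proteasome, and the chaperones that assemble its regulatory particle, were followed in the livers of 31 female rats. Members were the genes of the count table whose symbol starts with Psma, Psmb, Psmc or Psmd and a digit. Psmb8, Psmb9 and Psmb10 were left out. With 2 or more counts summed across the 31 rats as a minimum, 39 of the 19904 genes tested were members, of 26312 in the table. Of these, 34 encode subunits or assembly chaperones: 7 alpha and 7 beta subunits of the core, 6 ATPase and 11 non-ATPase subunits of the regulatory particle, and 3 chaperones (Psmd5, PSMD9 and Psmd10). The other 5 are Psma3l, a second entry named PSMB6, Psma8, Psmb11 and Psmc3ip, the last of which shares the prefix but encodes a meiotic recombination factor and no subunit.

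Young adult Wistar rats (Crl:WI) were dosed by oral gavage for 28 days with thiacloprid (THI) or clothianidin (CTD), which are neonicotinoid insecticides, with the imidazole fungicide imazalil (IMZ), or with pairs of them, in aqueous carboxymethyl-cellulose. The 8 control rats received this vehicle alone. The daily dose in mg/kg body weight was 108 of THI in 4 rats, 93 of IMZ in 4 and 288 of CTD in 3. THI + IMZ combined 54 with 46, THI + CTD 54 with 134 and IMZ + CTD 46 with 135, each in 4 rats. RNA was sequenced from whole liver, a separate rat per library. The doses of the single compounds differ, so their values stand side by side and were not compared with each other.

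The proteasome degrades proteins that carry ubiquitin chains. Its core is a barrel of alpha and beta rings in which Psmb5, Psmb6 and Psmb7 hold the catalytic sites, and its regulatory particle binds ubiquitin, removes it, and unfolds the substrate with a ring of ATPases before feeding it into the core. In hepatocytes the transcription factor NRF1 (gene Nfe2l1) raises subunit genes together when proteasome activity falls, NRF2 can raise some of them under oxidative or electrophilic stress, and interferon replaces the catalytic subunits by Psmb8, Psmb9 and Psmb10 in the immunoproteasome.

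Libraries held 32.7 M to 101 M counts in the controls (median 60.5 M) and 31.8 M to 54.8 M in the treated rats (median 40.2 M). Values are CPM, the counts scaled to library size after TMM normalisation. Within each of the 34 genes a single library held between 57 and 18119 counts. The low end is Psmd10, with at most 259 counts in a library, for which counting error is of the size of the spread among rats. The SE of a log2 fold change had a median of 0.09 in THI and 0.10 in CTD. No lengths of transcripts were used, so levels are compared between rats and not between genes. The defining hepatocyte markers (Alb, Apoa1, Ttr and 4 others) summed to between 182000 and 242000 CPM in the controls and to between 189000 and 207000 CPM in CTD. Markers of T and NK cells summed to at most 3.28 CPM in the controls. In whole liver, fewer cells of a type and less RNA per cell cannot be told apart.

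The 34 genes moved together from rat to rat, also among the controls. Control replicate 2 was the highest of the 8 controls in 32 of the 34 genes, against 17.4% of all genes tested, and its 34 genes summed to 2912 CPM. In the other 7 controls the sum ran from 2099 to 2412 CPM. Control replicate 7 was the lowest control in 27 of them (all genes 10.8%). The same was seen within treatments, where THI replicate 2 was highest of its group in 30 (all genes 22.8%) and THI + IMZ replicate 4 lowest in 31 (all genes 20%). Results are therefore also given without Control replicate 2, which stands apart in the plot of all rats. The 2 exceptions in Control replicate 2 were the chaperones PSMD9, which at 35.4 CPM was the lowest of the controls, and Psmd10.

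**Figure D1:**
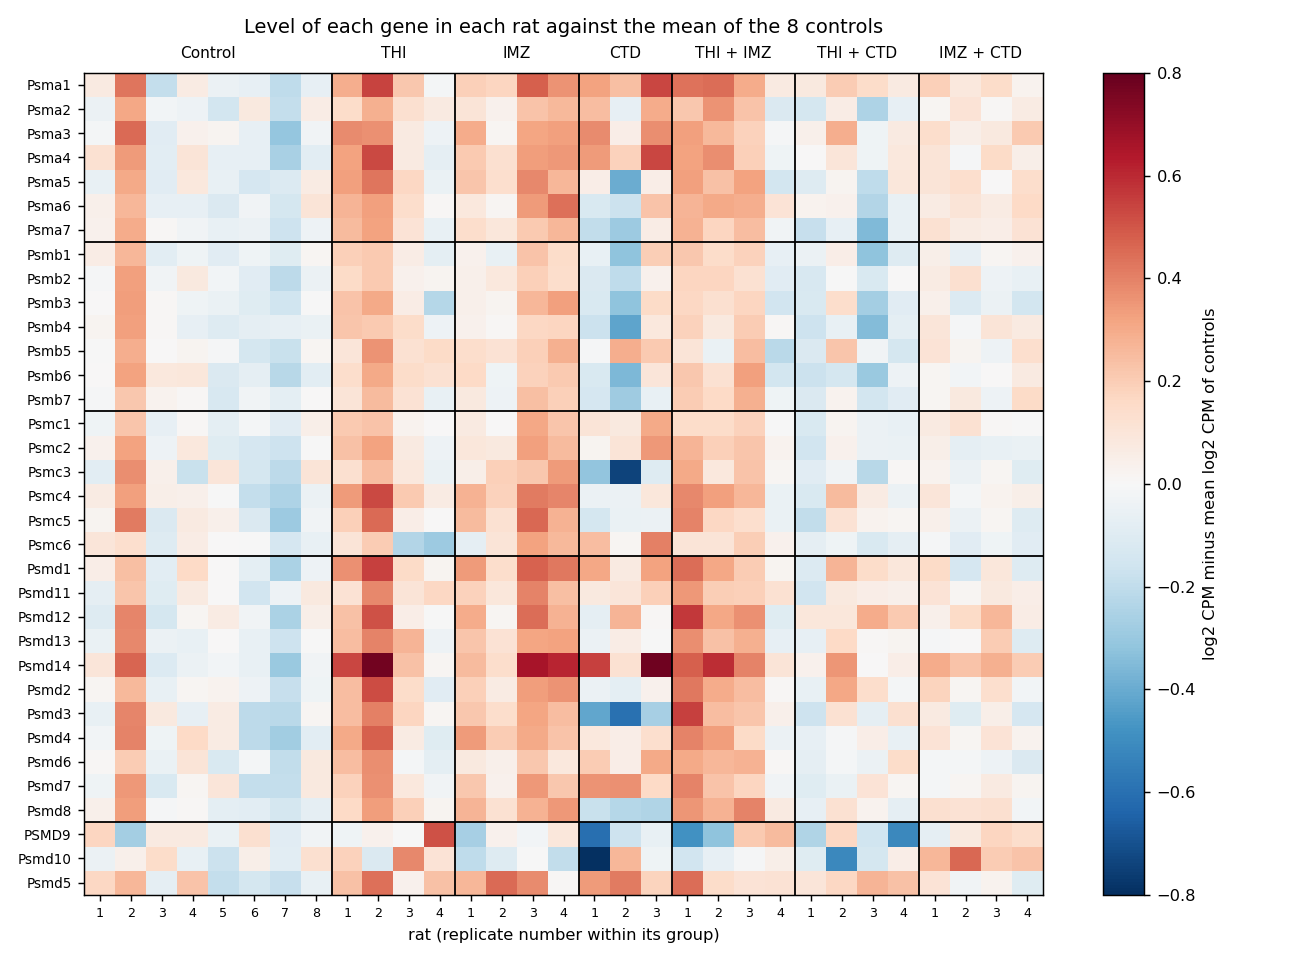
Level of the 34 genes (one line each, grouped as core alpha, core beta, regulatory ATPase, regulatory non-ATPase and chaperones) in each of the 31 rats (columns, by group), as log2 CPM minus the mean log2 CPM of the 8 controls, with the colour scale from -0.8 to 0.8. Control replicate 2 is red in nearly every line, THI, IMZ and THI + IMZ are mostly red apart from single pale rats such as THI + IMZ replicate 4, and CTD holds red and blue lines side by side.

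CTD was the treatment in which members passed the test. In CTD 7 of the 39 members passed an adjusted p of 0.05 (edgeR quasi-likelihood test, Benjamini-Hochberg over all 19904 genes), or 17.9%, where 12.7% of all genes tested passed. Psmd14, Psma1, Psma4, Psmd5 and Psmd7 rose and Psmd3 and Psmc3 fell. That is 12.8% of members higher and 5.13% lower, against 6.62% and 6.03% of all genes. All genes tested include some with as few as 2 counts in total, which can hardly pass, whereas the 34 genes were counted more deeply. With a stricter count filter (filterByExpr of edgeR) 7 members passed, with 2817 of all genes. The share of members is thus not far from the background and is not read as an excess. The median log2 fold change of the 39 members was -0.01, and that of all genes -0.07. The 7 genes that passed came from every class of the 34 genes but the core beta subunits. The log2 fold change was above 0 in 18 of the 39 (46.2%, all genes 41%). An unadjusted p under 0.05 was reached by 14 of the 39 (35.9%, against 25.2% of all genes), 11 of them higher and 3 lower, where 12.5% and 12.7% of all genes were.

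Psmd14 encodes the deubiquitinase of the regulatory particle's lid, which cuts the ubiquitin chain off a substrate as it is unfolded. It was at 47.1, 35.2 and 55.4 CPM in the 3 CTD rats. In the controls it ran from 26.3 to 44.7 CPM with a median of 31.5 CPM, so CTD replicate 2 lay below Control replicate 2 while the other 2 CTD rats lay above all controls. The log2 fold change was 0.49 ± 0.14 (SE, adjusted p = 0.0206 by edgeR). Its partner in the lid, Psmd7, was at 71.3, 71.7 and 62.2 CPM in CTD, against 48.8 to 70.8 CPM (median 55.4 CPM) in the controls. It rose by 0.29 ± 0.10 on the log2 scale (adjusted p = 0.0471). Only Control replicate 2 overlapped with the CTD rats.

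Psma1 and Psma4 encode alpha ring subunits, and the tail of the Psma4 product helps to close the gate through which substrates enter the core. Psma1 was at 86.0, 81.1 and 99.4 CPM in CTD and at 59.8 to 92.4 CPM (median 66.1 CPM) in the controls. Psma4 was at 84.9, 76.0 and 96.8 CPM, and at 55.8 to 84.9 CPM (median 64.0 CPM) in the controls. In both genes the CTD rats lay above 7 of the 8 controls, and Control replicate 2 reached into their range. The log2 fold changes were 0.36 ± 0.11 for Psma1 (adjusted p = 0.0254 by edgeR) and 0.35 ± 0.11 for Psma4 (adjusted p = 0.0288).

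Psmd5, a chaperone that holds ATPases of the regulatory particle during assembly, was at 57.2, 60.2 and 51.1 CPM in CTD. The controls ran from 39.5 to 54.1 CPM with a median of 43.0 CPM, so CTD replicate 3 fell among them. Psmd5 rose by 0.31 ± 0.10 (adjusted p = 0.0469 by edgeR). The other 2 chaperones did not pass, with log2 fold changes of -0.27 ± 0.15 for PSMD9 (adjusted p = 0.267) and -0.13 ± 0.16 for Psmd10 (adjusted p = 0.651).

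Psmd3, a scaffold subunit of the lid, was at 60.7, 53.6 and 67.4 CPM in CTD. In the controls it ran from 69.7 to 106 CPM with a median of 79.8 CPM, so every CTD rat lay below every control. It fell by 0.43 ± 0.11 on the log2 scale (95% interval -0.66 to -0.20, adjusted p = 0.00864 by edgeR). Psmc3, an ATPase of the unfolding ring, was at 61.9, 46.2 and 71.7 CPM, against 66.8 to 99.8 CPM (median 76.0 CPM) in the controls. It fell by 0.38 ± 0.11 (adjusted p = 0.0219), and CTD replicate 3 lay within the controls. Psmd8, another lid subunit, also had all 3 CTD rats (89.9, 86.5 and 85.9 CPM) below all controls (91.9 to 128 CPM). Its log2 fold change of -0.22 ± 0.09 did not pass (adjusted p = 0.0901). These 2 genes whose CTD rats were all below the controls are 5.13% of the members, where 5.47% of all genes tested had that order.

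Leaving out a CTD rat left 1 to 4 members past the threshold, and fewer of all genes also passed. Without CTD replicate 1 Psmd3 was the 1 member that passed, with 1470 of all genes where 2518 passed with all rats. Psmd14 (0.47), Psma1 (0.38), Psma4 (0.36) and Psmc3 (-0.40) then kept about the same log2 fold change. Without CTD replicate 2, when 1781 of all genes passed, Psmd14, Psma1, Psma4 and the ATPase Psmc6 were called higher, and Psmd3 was not called (-0.35, adjusted p = 0.0892 by edgeR). Without CTD replicate 3, when 2311 of all genes passed, Psmd5 and Psmd7 were higher and Psmd3 and Psmc3 lower. Without Control replicate 2 there were 8 calls, the same 7 and Psma3 (0.34 ± 0.10, adjusted p = 0.0202), against 12.9% of all genes. That rat was left out for its high values in these genes, so the added call is a description and not support. Fitted with only the CTD and control rats, 2 members passed, Psmd14 and Psmd3, with 2080 of all genes.

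**Figure D2:**
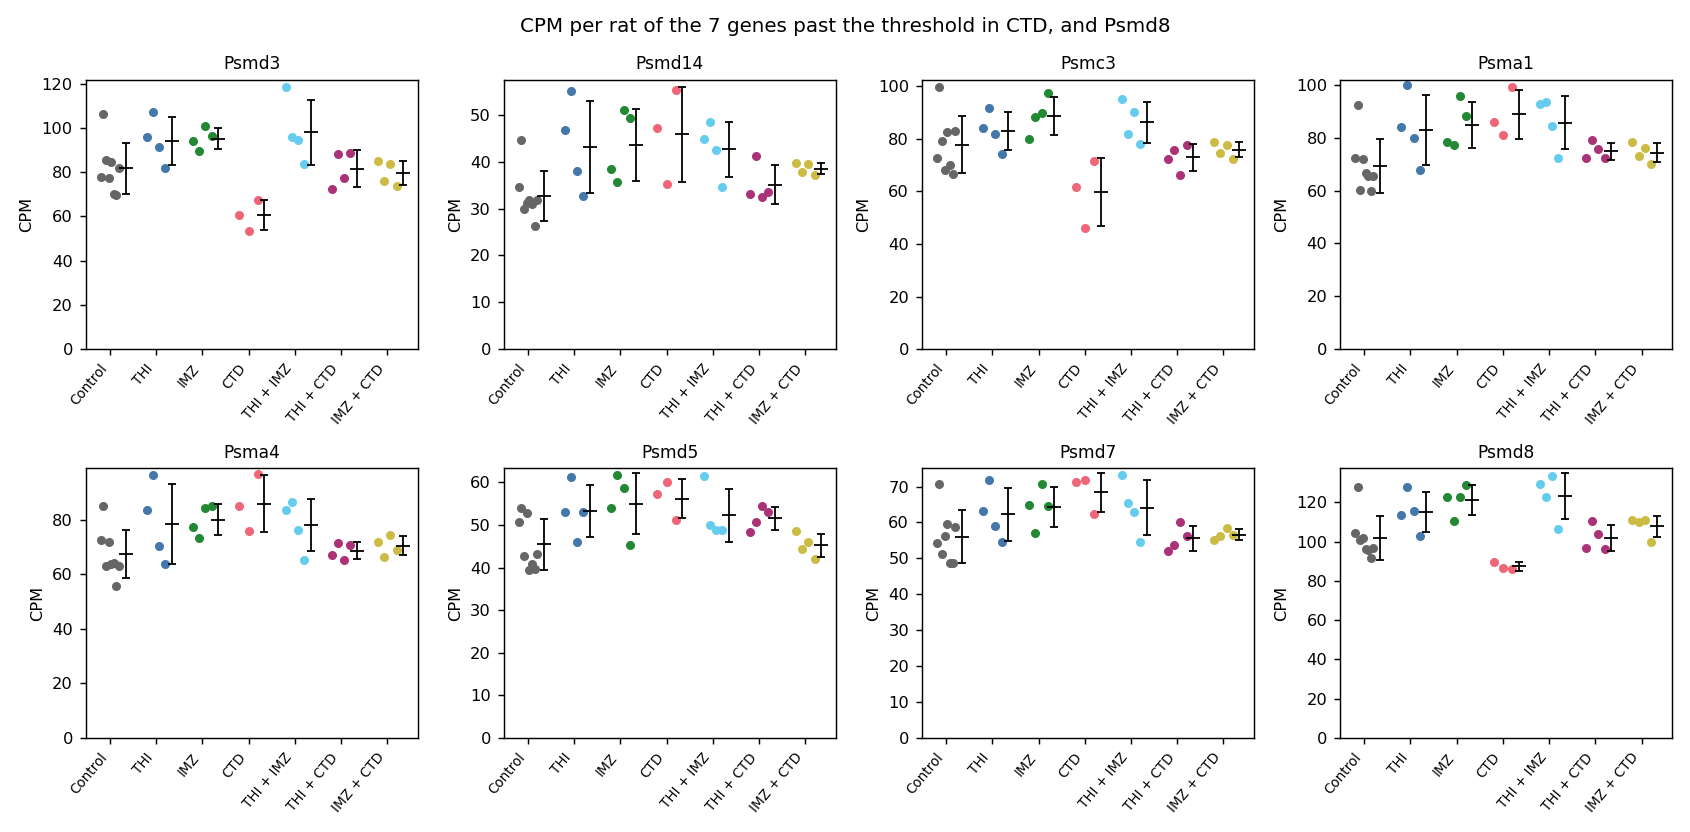
CPM (y axis from 0) of Psmd3, Psmd14, Psmc3, Psma1, Psma4, Psmd5, Psmd7 and Psmd8 in each rat, by group, with the mean and SD in black beside the points. The 3 CTD rats lie under all 8 controls for Psmd3 (60.7, 53.6 and 67.4 CPM against at least 69.7 CPM) and Psmd8, while for Psma1 and Psmd14 they lie at the upper end of the controls or above them.

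The promoters of these genes are shown because CTD moved them in opposite directions although they encode parts of 1 complex or its chaperone. Of the 34 genes, 30 had an entry in the RefSeq promoter table (build GRCr8), and Psma7, Psmd6, Psmd12 and Psmd14 had none. The 250 bases before the annotated start are printed 5′ to 3′ in the direction of the gene. Capitals mark, on either strand, the antioxidant response element core (TGACNNNGC) that NRF1 and NRF2 can bind, the CCAAT box (CCAAT), the GC box (GGGCGG) and an ETS core (CCGGAAG), where matches of the GC box may overlap each other. Psmb5 is added as an example with the antioxidant response element core.
Psma1 (chr1:177887858-177888107, minus strand): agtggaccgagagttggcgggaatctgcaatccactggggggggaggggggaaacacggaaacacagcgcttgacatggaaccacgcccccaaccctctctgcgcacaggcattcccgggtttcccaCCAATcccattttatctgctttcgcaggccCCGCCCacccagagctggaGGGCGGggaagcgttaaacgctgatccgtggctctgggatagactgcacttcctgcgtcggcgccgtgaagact
Psma4 (chr8:64236270-64236519, plus strand): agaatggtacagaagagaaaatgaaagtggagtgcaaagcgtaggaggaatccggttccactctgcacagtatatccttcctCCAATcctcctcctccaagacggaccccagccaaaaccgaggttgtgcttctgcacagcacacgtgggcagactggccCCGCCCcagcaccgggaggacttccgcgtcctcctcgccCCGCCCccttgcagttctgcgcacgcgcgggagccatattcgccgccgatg
Psmd5 (chr3:38548491-38548740, minus strand): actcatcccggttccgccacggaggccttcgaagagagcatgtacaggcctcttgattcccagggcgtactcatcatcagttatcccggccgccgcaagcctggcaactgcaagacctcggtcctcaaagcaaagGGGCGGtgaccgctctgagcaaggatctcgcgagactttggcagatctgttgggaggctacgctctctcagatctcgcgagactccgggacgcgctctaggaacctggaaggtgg
Psmd7 (chr19:52411317-52411566, minus strand): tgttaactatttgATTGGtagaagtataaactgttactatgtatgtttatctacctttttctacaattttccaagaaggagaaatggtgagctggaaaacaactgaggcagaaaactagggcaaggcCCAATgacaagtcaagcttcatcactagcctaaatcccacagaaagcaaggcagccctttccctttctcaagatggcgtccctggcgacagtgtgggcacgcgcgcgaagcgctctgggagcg
Psmc3 (chr3:97487393-97487642, plus strand): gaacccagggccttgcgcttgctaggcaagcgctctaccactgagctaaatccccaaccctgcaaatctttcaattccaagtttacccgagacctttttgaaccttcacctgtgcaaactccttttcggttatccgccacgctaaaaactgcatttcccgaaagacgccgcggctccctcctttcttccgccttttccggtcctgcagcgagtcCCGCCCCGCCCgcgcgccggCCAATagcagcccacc
Psmd3 (chr10:84139688-84139937, plus strand): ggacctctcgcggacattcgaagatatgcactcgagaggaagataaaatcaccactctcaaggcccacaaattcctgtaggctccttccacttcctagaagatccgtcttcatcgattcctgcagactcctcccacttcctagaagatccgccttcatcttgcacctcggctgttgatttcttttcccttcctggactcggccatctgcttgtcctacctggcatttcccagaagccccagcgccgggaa
Psmb5 (chr15:32047380-32047629, minus strand): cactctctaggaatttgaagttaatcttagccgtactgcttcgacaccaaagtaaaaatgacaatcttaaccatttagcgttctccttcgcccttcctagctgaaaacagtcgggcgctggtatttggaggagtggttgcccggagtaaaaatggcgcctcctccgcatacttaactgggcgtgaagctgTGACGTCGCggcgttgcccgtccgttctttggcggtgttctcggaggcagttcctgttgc
The antioxidant response element core was found in 6 of the 30 genes (20%), Psma3, Psmb2, Psmb5, Psmb6, Psmd1 and PSMD9, and in 10.1% of all 33469 promoters of that length. None of the 6 printed genes that passed in CTD held it in this window. The CCAAT box was in 16 of the 30 (53.3%, all promoters 34%), the GC box in 21 (70%, all promoters 30.5%) and the ETS core in 9 (30%, all promoters 7.27%). Each member was counted by its first entry, while the background holds every promoter entry, whether or not the gene is expressed in liver. The shares are therefore not like for like, and their difference was not tested. Psma1, Psma4 and Psmc3 each held 1 CCAAT box and 2 GC boxes, so Psmc3, which fell, carried the same 2 kinds of match as Psma1 and Psma4, which rose. Psmd3 held none of the 4 motifs. These matches describe the letters in the window and are not evidence of binding.

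In THI, IMZ and THI + IMZ nearly all members had small positive log2 fold changes, and none passed the adjusted test. With THI, 0 of 39 members passed (edgeR, and 0 by the Wald test of DESeq2), where 0.543% of all genes did. An unadjusted p under 0.05 was reached by 14 members, all higher, which is 35.9% against 8.68% of all genes (4.43% higher). The log2 fold change was above 0 in 37 of the 39 (94.9%, all genes 45%), and its median was 0.17, against -0.01 over all genes. With IMZ, 0 of 39 passed by either tool, where 0.251% of all genes did. Unadjusted, 24 members (61.5%, all genes 8.08%) were under 0.05 and all were higher, as were 4.17% of all genes. The median was 0.20, and 35 of the 39 were above 0 (89.7%, all genes 44.4%). With THI + IMZ, 0 of 39 passed by edgeR and 1 by DESeq2, which was Psmd8, where 1.18% of all genes (235) passed by edgeR and 432 by DESeq2. Unadjusted, 18 were under 0.05 (46.2%, all genes 11.1%), all higher, as were 5.85% of all genes. The median was 0.17, and 35 of the 39 were above 0 (all genes 44.3%). The genes share libraries and move together from rat to rat, so these counts are not counts of independent events, and the 3 comparisons share their controls.

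The summed level of the 34 genes was 2378 ± 237 CPM (SD, n = 8) in the controls, 2682 ± 305 CPM in THI (n = 4), 2739 ± 199 CPM in IMZ (n = 4) and 2705 ± 244 CPM in THI + IMZ (n = 4). The 3 treated means were 112.8%, 115.2% and 113.7% of the control mean, and each group overlapped with the controls. By rat the sum was 2772, 3059, 2546 and 2350 CPM in THI, 2640, 2510, 2937 and 2870 CPM in IMZ, and 2926, 2757, 2782 and 2356 CPM in THI + IMZ. Control replicate 2 at 2912 CPM lay within each of these groups, while all 4 IMZ rats lay above the other 7 controls. Sums with CTD were 2434 ± 206 CPM for CTD (n = 3), 2348 ± 136 CPM for THI + CTD (n = 4) and 2440 ± 58.9 CPM for IMZ + CTD (n = 4).

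**Figure D3:**
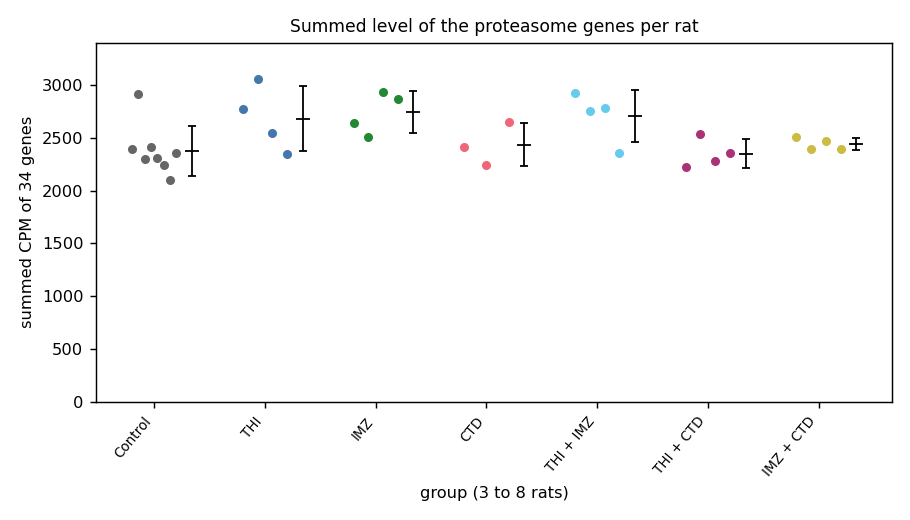
Summed CPM of the 34 genes in each rat (y axis from 0), by group, with the mean and SD in black. Control replicate 2 at 2912 CPM stands above the other controls (2099 to 2412 CPM) and in the range of THI, IMZ and THI + IMZ.

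Without Control replicate 2 these positive values were larger and a few members passed. This rat was left out because it was the highest control in 32 of the 34 genes, so higher values had to follow. The calls made without it are therefore a description and are not used as support. In IMZ, Psmd8 then rose by 0.30 ± 0.07 (adjusted p = 0.0342 by edgeR), which was 1 of 39 members where 0.297% of all genes passed. In THI + IMZ, 3 members passed where 1.5% of all genes did: Psmd8 (0.33 ± 0.07, adjusted p = 0.0086), Psma1 (0.38 ± 0.09, adjusted p = 0.0205) and Psmd14 (0.46 ± 0.12, adjusted p = 0.049). In THI still none passed, with 27 at an unadjusted p under 0.05, as were 9.44% of all genes. The medians without this rat were 0.23 in THI, 0.25 in IMZ and 0.22 in THI + IMZ. Without THI + IMZ replicate 4, the lowest of its group, the median in THI + IMZ was 0.24 and Psmd8 was the 1 member past the threshold, among 143 of all genes tested.

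By class, the non-ATPase subunits had the highest medians and the core beta subunits lower ones. The 11 non-ATPase subunits were all positive in the 3 treatments, with medians of 0.20 in THI, 0.24 in IMZ and 0.25 in THI + IMZ, and in THI + IMZ each of the 11 had an unadjusted p under 0.05. The 7 core alpha subunits were also all positive (medians 0.19, 0.23 and 0.19). The 7 core beta subunits were all positive with medians of 0.10, 0.12 and 0.12, of which 1 was under 0.05 unadjusted in each treatment. The difference between classes was not tested. Among the named genes, Psmd14 was at 46.8, 55.2, 38.1 and 32.7 CPM in THI, a log2 fold change of 0.40 ± 0.13 (adjusted p = 0.256 by edgeR), and at 38.4, 35.7, 51.0 and 49.3 CPM in IMZ, 0.42 ± 0.13 (adjusted p = 0.254). In each group the lowest rats lay among the controls. Psmd1, a scaffold of the regulatory particle's base, had 0.34 ± 0.10 in IMZ (adjusted p = 0.186), the ATPase Psmc4 0.31 ± 0.09 (adjusted p = 0.209) and Psmd11, a lid subunit that braces the regulatory particle against the core, 0.23 ± 0.07 (adjusted p = 0.244). Psmd8 in THI + IMZ was at 129, 123, 133 and 107 CPM against 91.9 to 128 CPM in the controls, 0.27 ± 0.08 (adjusted p = 0.0762). THI + IMZ replicates 1 and 3 lay above all controls.

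**Figure D4:**
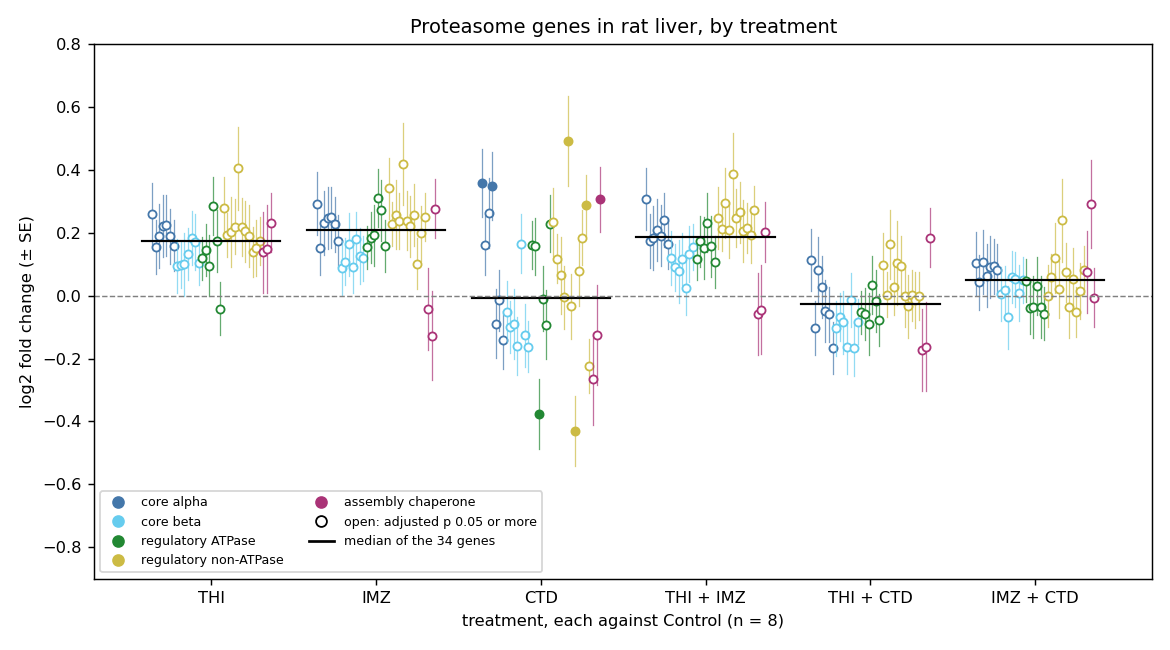
Log2 fold change against Control with its SE (bars) for each of the 34 genes, by treatment and coloured by class, filled where the adjusted p is under 0.05, with the median as a black line. The points of THI, IMZ and THI + IMZ lie mostly above 0 and all are open, whereas CTD spreads to both sides of 0 with 5 filled points above and 2 below.

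The catalytic subunits of the core did not pass the test in any treatment. Psmb5, which carries the chymotrypsin-like site, had log2 fold changes of 0.18 ± 0.09 in THI, 0.18 ± 0.09 in IMZ, 0.17 ± 0.10 in CTD and 0.03 ± 0.09 in THI + IMZ (adjusted p = 0.55, 0.604, 0.289 and 0.955 by edgeR). Psmb6, the caspase-like subunit, had 0.17 ± 0.09 in THI and -0.13 ± 0.10 in CTD (adjusted p = 0.594 and 0.471). Psmb7, the trypsin-like subunit, had 0.10 ± 0.07 in THI and -0.16 ± 0.08 in CTD (adjusted p = 0.709 and 0.208). Among all 7 core beta subunits 6 were negative in CTD, with a range from -0.16 to 0.17 and a median of -0.10, whereas the 7 alpha subunits ran from -0.14 to 0.36.

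In the mixtures with CTD the members lay close to the controls. With THI + CTD, 0 of 39 members passed by edgeR or DESeq2, where 4.39% of all genes passed by edgeR. The only member with an unadjusted p under 0.05 was Psmb11 (2.56%, all genes 17.6%), 14 of the 39 were above 0 (all genes 43%), and the 34 genes ran from -0.17 to 0.18 with a median of -0.03. With IMZ + CTD, 0 of 39 passed by either tool, where 1.46% of all genes did by edgeR. The 34 genes ran from -0.07 to 0.29 with a median of 0.05, and 28 of the 39 members were above 0 (all genes 42.9%). The 1 member under 0.05 unadjusted (2.56%, all genes 12.8%) was Psmd10 (0.29, adjusted p = 0.38), whose IMZ + CTD rats all lay above the controls (1 of 39 members, where 1.61% of all genes had that order). Psmd10 falls outside the rule for named genes and was named after its values were seen. Psmd3, which fell in CTD, was at 72.3, 88.3, 77.2 and 88.7 CPM in THI + CTD and at 85.2, 75.9, 83.6 and 73.8 CPM in IMZ + CTD, among the controls in every rat. Psmd14 was at 33.2, 41.3, 32.4 and 33.5 CPM in THI + CTD and at 39.7, 37.8, 39.4 and 37.3 CPM in IMZ + CTD. Without Control replicate 2 there was still no call in either mixture.

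Each mixture was then compared with a dose-weighted sum of its compounds, that is 0.5 of the log2 fold change of THI or IMZ and 0.47 of that of CTD. The sum takes a log2 fold change to scale with dose. This could not be tested, since each compound alone was sequenced at a single dose. The authors state that recommended mixture models cannot be applied to a single dose level. No member passed in any mixture (edgeR, and 0 by DESeq2), where 0.0151% of all genes passed in THI + IMZ, 0.286% in THI + CTD and 1.16% in IMZ + CTD. In THI + IMZ no member was under 0.05 unadjusted (all genes 6.46%) and the median deviation was -0.01. In THI + CTD 10 members were under 0.05 unadjusted, all lower than the sum (25.6%, all genes 9.66%, of which 3.89% lower), and the median deviation was -0.15. In IMZ + CTD 8 were lower and 1 higher (23.1%, all genes 14.3%, of which 6.5% lower and 7.78% higher), with a median of -0.11. Here too the members share rats and move together, so these counts are not counts of independent events. Psmd14 deviated by -0.33 in THI + CTD (adjusted p = 0.426) and by -0.20 in IMZ + CTD (adjusted p = 0.536). Psmd3 deviated by 0.10 and 0.06.

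Compared with each other, the mixtures differed in no member at the adjusted threshold by edgeR, where 0.176% of all genes passed for THI + CTD against IMZ + CTD, 0.171% for THI + CTD against THI + IMZ and 0.0653% for IMZ + CTD against THI + IMZ. DESeq2 called 1 member lower in THI + CTD than in THI + IMZ, the alpha subunit Psma7 (-0.34 ± 0.10, adjusted p = 0.0415), which was named after its value was seen, and none in the other 2 comparisons. By DESeq2 228 of all genes passed in THI + CTD against THI + IMZ, and 34 by edgeR. In THI + CTD against THI + IMZ all 34 genes had a negative log2 fold change, from -0.33 to -0.02 with a median of -0.20, where 44.7% of all genes were above 0. Of these 16 were under 0.05 unadjusted (47.1%, all genes 10.1%, of which 5.17% lower). In 6 of the 39 members all THI + CTD rats lay below all THI + IMZ rats, where 2.03% of all genes did. For IMZ + CTD against THI + IMZ, 6 members were under 0.05 unadjusted (15.4%, all genes 8.97%), 5 of them lower (all genes 4.9%) and 1 higher (all genes 4.06%). For THI + CTD against IMZ + CTD, 4 were (10.3%, all genes 10.4%), all lower (all genes 5.02%). The genes move together from rat to rat, so these counts are not counts of independent events.

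The other 5 members were low. Psma3l, a copy of Psma3, was at 0.71 to 1.00 CPM in the controls and the second entry named PSMB6 at 0.49 to 0.84 CPM, and since both resemble a gene counted much more deeply their values are uncertain. Psma8, a testis form of an alpha subunit, did not exceed 0.21 CPM in any rat. Psmb11, the catalytic subunit of the thymus proteasome, was at 0 in all 8 controls and above 0 in 5 treated rats, with at most 0.17 CPM in IMZ replicate 4. Psmc3ip had all 3 CTD rats (2.08, 2.43 and 1.91 CPM) above all controls (1.12 to 1.87 CPM), with a log2 fold change of 0.41 (adjusted p = 0.138 by edgeR). It is 1 of 39 members with that order, where 5.33% of all genes had it.

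Among the immunoproteasome subunits, Psmb8, which replaces Psmb5, was at 60.2, 69.3 and 58.5 CPM in CTD and at 45.7, 67.3, 72.8 and 55.8 CPM in THI + IMZ. In the controls it ran from 77.9 to 99.2 CPM with a median of 85.1 CPM, so no rat of these groups reached a control. Psmb8 fell by 0.48 ± 0.14 in CTD (adjusted p = 0.0207 by edgeR) and by 0.53 ± 0.13 in THI + IMZ (adjusted p = 0.0256). Its log2 fold changes were -0.26 in THI, -0.26 in IMZ, -0.25 in THI + CTD and -0.12 in IMZ + CTD, none of which passed. Psmb9, which replaces Psmb6, had -0.44 ± 0.13 in THI + IMZ (adjusted p = 0.102), and Psmb10, which replaces Psmb7, had -0.27 ± 0.09 there (adjusted p = 0.143). Neither passed in any treatment.

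The ratio of each immunoproteasome subunit to its constitutive counterpart was looked at after the levels had been seen, and all treatments share the controls. It is therefore given as a description, and the permutation test made of it is not used as support. The log2 ratio of Psmb8 over Psmb5 ran from 0.68 to 1.43 in the controls, with a mean of 1.06. It ran from 0.36 to 0.85 in THI, from 0.39 to 0.86 in IMZ, from 0.28 to 0.54 in CTD and from 0.034 to 0.74 in THI + IMZ. Every rat of these 4 groups was below the control median, and Control replicate 2 was the 1 control that lay among them. The mean log2 ratio of Psmb10 over Psmb7 was -1.25 in the controls, -1.39 in THI, -1.54 in IMZ and -1.20 in CTD. It was -1.68 in THI + IMZ, -1.375 in THI + CTD and -1.08 in IMZ + CTD. That of Psmb9 over Psmb6 was -0.36 in the controls, -0.76 in THI, -0.72 in IMZ and -0.43 in CTD. In the mixtures it was -0.95 in THI + IMZ, -0.48 in THI + CTD and -0.33 in IMZ + CTD.

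**Figure D5:**
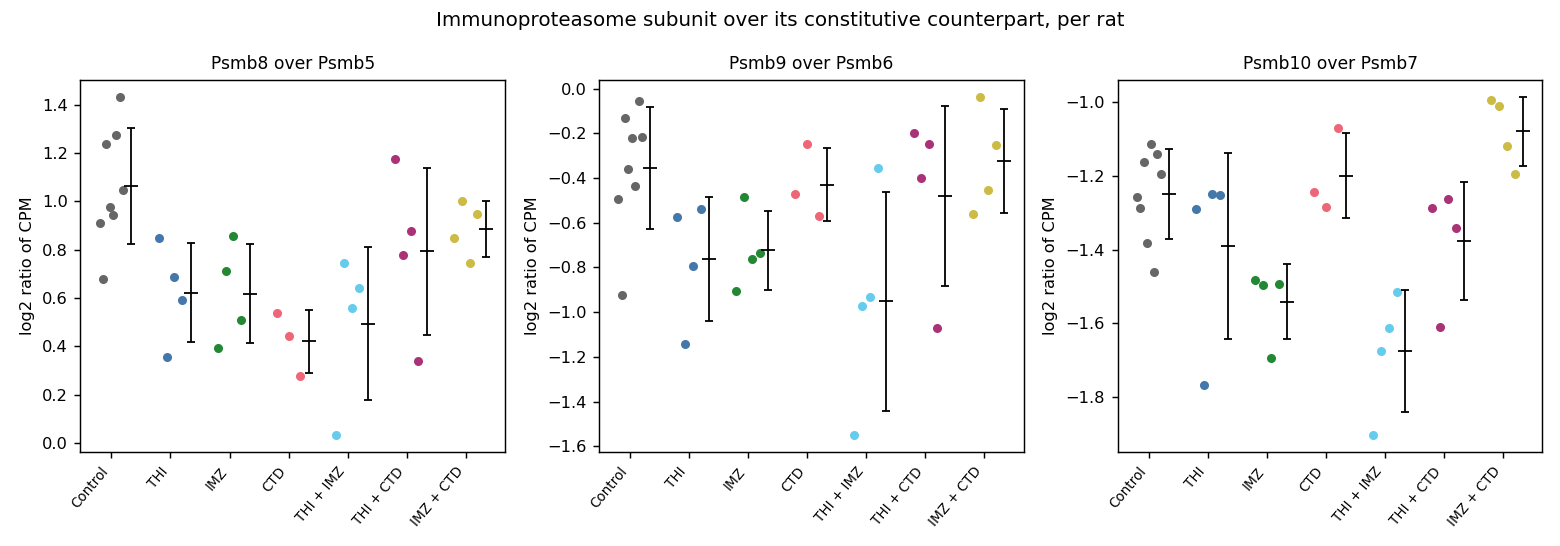
Log2 ratio of the CPM of Psmb8 over Psmb5, Psmb9 over Psmb6 and Psmb10 over Psmb7 in each rat, by group, with the mean and SD in black (axes do not start at 0). For Psmb8 over Psmb5 the rats of THI, IMZ, CTD and THI + IMZ lie below every control but Control replicate 2 (0.68), and THI + CTD spreads from 0.34 to 1.18.

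Of 9 markers of Kupffer cells, the liver's macrophages, 4 fell in CTD and 3 in THI + CTD, while the others did not pass, with a median log2 fold change of -0.39 in CTD, and their summed level ran from 370 to 571 CPM in CTD, 386 to 538 CPM in THI + IMZ and 454 to 760 CPM in the controls, so these groups overlap with the controls. None of 7 markers of T and NK cells and none of 4 of B and plasma cells passed in these groups. The B and plasma cell markers were near the floor, with a sum of 0.953 to 1.59 CPM in the controls. Their sum ran from 0.207 to 1.27 CPM in CTD, 0.492 to 0.907 CPM in THI + IMZ and 0.334 to 0.785 CPM in THI + CTD. In THI it ran from 0.357 to 0.674 CPM, in IMZ from 0.54 to 0.957 CPM and in IMZ + CTD from 0.369 to 1.35 CPM. The median of this sum was below the control median of 1.34 CPM in every treatment. The part of these cell types in the Psmb8 values was not tested. In THI + IMZ no Kupffer cell marker passed and their median was -0.27.

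Of the other proteasome proteins, CTD raised Usp14, a deubiquitinase bound to the regulatory particle (21.5 CPM in the controls, 32.8 CPM in CTD, 0.61 ± 0.14, adjusted p = 0.00363 by edgeR), and Ube3c, a ubiquitin ligase that binds it (0.27 ± 0.06, adjusted p = 0.00348). It lowered Adrm1, a ubiquitin receptor of the particle, by 0.46 ± 0.13 (32.8 to 23.9 CPM, adjusted p = 0.0158). These are 3 of 5 such genes. Among 6 entries for the assembly chaperones of the core 1 passed in CTD, Psmg2 (0.56 ± 0.12, adjusted p = 0.00202). Both entries named Pomp, the maturation factor of the core, stayed at or under 0.13 CPM on average in every group. Entries so near the floor say little about the level of Pomp in the liver, and why they were low was not tested. Of 5 other activators and inhibitors of the core, Psme4 rose in CTD (0.43 ± 0.13, adjusted p = 0.0317). In the other treatments no gene of these 3 lists passed.

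Upstream of the proteasome, CTD lowered the ubiquitin gene UBB from 493 to 374 CPM (-0.40 ± 0.10, adjusted p = 0.00987 by edgeR), 1 of 5 ubiquitin genes. Among genes for ubiquitin activation and shuttling, the activating enzyme Uba6 rose in CTD (0.40) and Uba1 fell (-0.20), and the shuttle factor Rad23b rose (0.25). Ubqln2, another shuttle factor, rose in THI (0.39 ± 0.09, adjusted p = 0.0453) and in THI + CTD (0.40 ± 0.09, adjusted p = 0.00878). Of the 6 genes that control transcription of proteasome genes, none passed in any treatment. NFE2L1 was at 80.0 CPM in the controls and 80.4 CPM in CTD, with log2 fold changes between -0.05 and 0.13 over the 6 treatments. None of 13 entries of cytosolic heat shock genes passed in any treatment. Of 9 entries for peptide supply to MHC class I, Tap2, a peptide transporter, fell in CTD (-0.77 ± 0.19, adjusted p = 0.0061), from 2.92 to 1.72 CPM.

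At least 1 NRF2 target gene rose in each of the 6 treatments. Of 12 such genes 9 rose in CTD (median 0.78), among them Gclm, a subunit of the enzyme that starts glutathione synthesis (1.04 ± 0.11, adjusted p = 8.91e-08 by edgeR), and the NADPH source Me1 (2.23 ± 0.32). The counts were 5 in THI, 3 in IMZ, 6 in THI + IMZ, 7 in THI + CTD and 1 in IMZ + CTD, and none fell. In THI + CTD the epoxide hydrolase Ephx1 rose by 1.60 and the glutathione transferase Gsta3 by 1.62. The proteasome members had a median of -0.02 there. The authors also place EPHX1 in a network under the nuclear receptor CAR (NR1I3), so these genes need not reflect NRF2 alone. All 15 cell division genes rose in CTD, with a median of 2.87, among them Cdk1 at 0.63 CPM in the controls and 6.96 CPM in CTD. The counts were 14 in THI + CTD, 14 in IMZ + CTD and 9 in THI + IMZ. They summed to 60.2 to 217 CPM in the CTD rats and to 10.9 to 25.3 CPM in the controls. In THI, where the proteasome members had a median of 0.17, none of the 15 passed and their sum did not exceed 25.2 CPM. In IMZ, where the members had a median of 0.20, none of the 15 passed either, but 14 had an unadjusted p under 0.05 and their median was 1.32. The part of the NRF2 target genes and of the cell division genes in the proteasome values was not tested.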

How the data were processed

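RNA-Seq counts from liver were analysed for 31 rats in 7 groups, taken from the sample labels. The authors prepared stranded total RNA libraries, checked them with FastQC 0.11.5, used STAR 2.5.2b for mapping (Rnor_5.0) and for counting by gene ID, and deposited raw counts for 26312 genes. Their normalised table (DESeq2 1.15.1) was not used. No gene annotation of Rnor_5.0 was used.

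The filter was a total of 2 or more counts over all rats. edgeR 4.0.16 (R 4.3.3) was run with TMM normalisation and 1 model of 7 group means. Its quasi-likelihood test was adjusted by Benjamini-Hochberg over all 19904 genes, with a threshold of 0.05. Standard errors were derived from the fold change and its F statistic. The biological coefficient of variation was 19.4%. Each library is a separate rat, and no 2 libraries of a group agreed within sampling noise. Depth ran from 31.8 M to 101 M counts. Alternatives were the size factors and Wald test of DESeq2 1.42.0, other filters, fits of the groups compared only, a replicate block, thinned counts, exact dose ratios and leaving out each rat. The fit was tested on simulated data.

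Members and gene lists were chosen with earlier results of these data known. The text names members past the threshold in any comparison with control, those with the smallest unadjusted p up to 12, and Psmb5, Psmb6 and Psmb7. It names Psmb8, Psmb9, Psmb10, Pomp, Nfe2l1 and up to 4 genes past the threshold per list. Rad23b, Psma3, Psma7, Psmc6, Psmc3ip, PSMD9, Psmd10 and the effect of Control replicate 2 were added after their values were seen. Some genes of these lists are not reported here.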

Additional observations from a re-analysis of the deposited data

Results flagged for a closer look

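Within groups of 4 to 10 rats, 111 sets of values were checked for a rat far from the rest of its group (Dixon's test), and 16 stood out (14.4%). Chance gives about 1 in 20 groups, and genes that move together are not independent.

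Control replicate 2 was the high rat in 7 of them. It held 106.3 CPM of Psmd3, 44.7 CPM of Psmd14, 92.4 CPM of Psma1, 128 CPM of Psmd8, 51.0 CPM of Psmb5, 96.9 CPM of Psmb7 and a sum of 2912 CPM over the 34 genes, for which the nearest control was at 2412 CPM. What set this rat apart was not tested.

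Among treated rats, THI + CTD replicate 2 was high for Psmd14 (41.3 CPM), THI + IMZ replicate 1 for the chaperone Psmd5 (61.6 CPM) and THI replicate 2 for Psmb6 (65.8 CPM). IMZ + CTD replicate 4 was low for Psmd8 (99.8 CPM) and THI + CTD replicate 1 for Psmd11 (62.6 CPM). Psmb11 stood out in THI replicate 2 (0.0188 CPM, 1 count) and IMZ replicate 4 (0.173 CPM, 8 counts). The other THI rats were at 0, so any count in THI replicate 2 had to be flagged. The log2 ratio of Psmb10 over Psmb7 was low in THI replicate 2 (-1.77) and IMZ replicate 3 (-1.69).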

How the results depend on the processing

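The count of 7 members in CTD was 2 when only CTD and control rats were fitted and 3 with the replicate number as a block (Psmd3, Psmc3 and Psmd8, all lower). The block took away all 5 higher calls, with log2 fold changes of 0.36 for Psmd14, 0.23 for Psma1, 0.21 for Psma4, 0.15 for Psmd5 and 0.21 for Psmd7 (adjusted p = 0.227 to 0.519 by edgeR). It gave medians of 0.098 in THI, 0.14 in IMZ and 0.089 in THI + IMZ. Only controls carry the replicate numbers 5 to 8, so this fit in effect compares treated rats with Control replicates 1 to 4. Control replicate 2, the high rat, is among them. Fewer controls and the numbers themselves cannot be told apart as the source of these changes. Same-numbered rats of different groups had a median correlation of 0.023 (highest 0.419), against -0.00931 for other pairs. Of 78 same-numbered pairs, 20 correlated above 0.1, and 11 of 31 rats correlated best with their own number. Whether the numbers pair the rats was not tested. The block moved no other count of members. The Wald test of DESeq2 gave 1 call in THI + IMZ and 1 in THI + CTD against THI + IMZ, where edgeR gave 0. Leaving out each rat in turn gave 0 to 1 calls in IMZ, 1 to 8 in CTD and 0 to 3 in THI + IMZ. An exact permutation test of the 18 immunoproteasome ratios, chosen after seeing the data and not used as support, passed in 7 with all rats and in 0 to 9 without 1 rat. Counts in the other 9 comparisons stayed at 0 in the 31 fits. Psmd5 and Psmd7, near the threshold, each lost their call in 15 of the 31 fits. Over these fits median log2 fold changes ranged from 0.10 to 0.23 in THI, 0.16 to 0.25 in IMZ and 0.13 to 0.24 in THI + IMZ. Other scalings, filters, thinned counts and exact dose ratios changed no count by over 1.5 times, and no called value reversed. With 3 CTD rats, 1 rat can decide a call, and no comparison of single compounds at equal dose was possible.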
